A study of Mus musculus with 13 samples.

Results

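The 10 genes described here run the step from G1 into S phase: the D-type cyclins Ccnd1, Ccnd2 and Ccnd3, their kinases Cdk4 and Cdk6, the E-type cyclins Ccne1 and Ccne2, their kinase Cdk2, and the activator E2F factors E2f1 and E2f2. They were taken by gene symbol from the deposited count tables and joined by Ensembl identifier, and make up 10 of the 21420 genes listed in both tables. All 10 had the same position in both tables and passed the low-count filter in every fit.

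D-type cyclins are made in response to growth signals and activate CDK4 and CDK6, which phosphorylate the retinoblastoma protein RB and its relatives, the pocket proteins. This releases E2F factors, which switch on Ccne1, Ccne2, E2f1 and E2f2 themselves and the genes of DNA replication. Cyclin E with CDK2 then completes the phosphorylation of RB. In the small intestine this cycle runs in the stem and transit-amplifying cells of the crypts. Eed and Ezh2 encode subunits of Polycomb repressive complex PRC2, which methylates histone H3 at lysine 27. EED is needed for the activity of the complex, whereas EZH2 is its main catalytic subunit and has a relative, EZH1.

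RNA of mouse small intestine was sequenced in 13 libraries of 5 groups. Eed KO organoids (n = 2, genotype Eed-/-, strain C57BL/6-FVB) and WT organoids (n = 2, strain FVB) are epithelial cultures treated with beta-naphthoflavone for 10 days. Eed KO crypts (n = 3, Eed-/-), Ezh2 KO crypts (n = 3, Ezh2-/-) and WT crypts (n = 3) came from C57BL/6-FVB mixed mice that received the same compound for 6 weeks until an age of 12 weeks. The compound induces expression of the AhCre recombinase, and this removes floxed alleles from epithelial cells. The labels name AhCre in all organoids, WT included, and in all crypts of sequencing run 440, WT included, and name the floxed Eed or Ezh2 allele in the knockouts among them. Run 440 held all Ezh2 KO crypts, Eed KO crypt 440_1 and WT crypt 440_1, and run 385 held all other libraries. Values of single libraries are given below in the order 385_1, 385_2, 440_1 for Eed KO and WT crypts, 440_1, 440_2, 440_3 for Ezh2 KO crypts and 385_1, 385_2 for organoids. No label tells if libraries within a group stem from different mice or cultures, so the p-values speak only of variation among the libraries sequenced, and some of that may be technical.

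Libraries held 11421666 to 18300644 counts. Eed averaged 18.9 ± 4.9 CPM (counts scaled to library size) in Eed KO crypts and 54.5 ± 5.2 CPM in WT crypts (SD, n = 3 each), a log2 fold change of -1.51 ± 0.21 (SE, edgeR adjusted p = 0.00133). In Eed KO organoids Eed averaged 24.9 ± 8.0 CPM, against 67.8 ± 7.7 CPM in WT organoids (SD, n = 2 each, edgeR adjusted p = 0.00699). Ezh2 averaged 19.3 ± 2.2 CPM in Ezh2 KO crypts and 86.0 ± 12.2 CPM in WT crypts (SD, n = 3 each, edgeR adjusted p = 0.0148). Cells that kept the gene and transcripts that lack only the floxed part cannot be told apart in the remaining reads. The epithelial marker Epcam was at 750 CPM or more in every library, but it was lower in Eed KO crypts, at 870 ± 182 CPM, than in WT crypts, at 1431 ± 179 CPM (SD, n = 3 each, log2 fold change -0.71, edgeR adjusted p = 0.00689), with no overlap, and it was the only 1 of 6 epithelial markers past the threshold. The 6 epithelial markers summed to 4752, 4298 and 8298 CPM in Eed KO crypts, against 6862, 5871 and 7421 CPM in WT crypts. Both Eed KO crypts of run 385 thus lay below every WT crypt in this sum, and that of run 440 lay above every WT crypt. The immune markers Cd3e, Cd52, Tyrobp and Itgax had no count in any organoid library. Mitochondrially encoded transcripts took 16.5%, 17.99% and 3.71% of counts in Eed KO crypts and 12.4%, 14.5% and 8.65% in WT crypts. Counts of the Y-linked gene Ddx3y were 0, 1 and 0 in Eed KO crypts and 400, 627 and 0 in WT crypts, so within run 385 sex and genotype cannot be told apart, and the Ddx3y pattern ran the other way in organoids, with 597 and 632 counts in Eed KO organoids and 1 and 0 in WT organoids.

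In Eed KO crypts the 3 D-type cyclins rose against WT crypts, whereas Cdk2, Cdk6, E2f1 and E2f2 fell, and Ccne1, Ccne2 and Cdk4 did not pass the test. Differential expression was tested with the quasi-likelihood F test of edgeR over all genes, with the sequencing run as a term and Benjamini-Hochberg adjusted p under 0.05 as the threshold, and all adjusted p-values below come from it unless another source is named. Of the 10 genes, 3 were higher and 4 lower. Among all 14406 genes tested, 13.4% were higher and 10.6% lower. The median log2 fold change was -0.45 over the 10 genes and -0.04 over all genes.

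**Figure D1:**
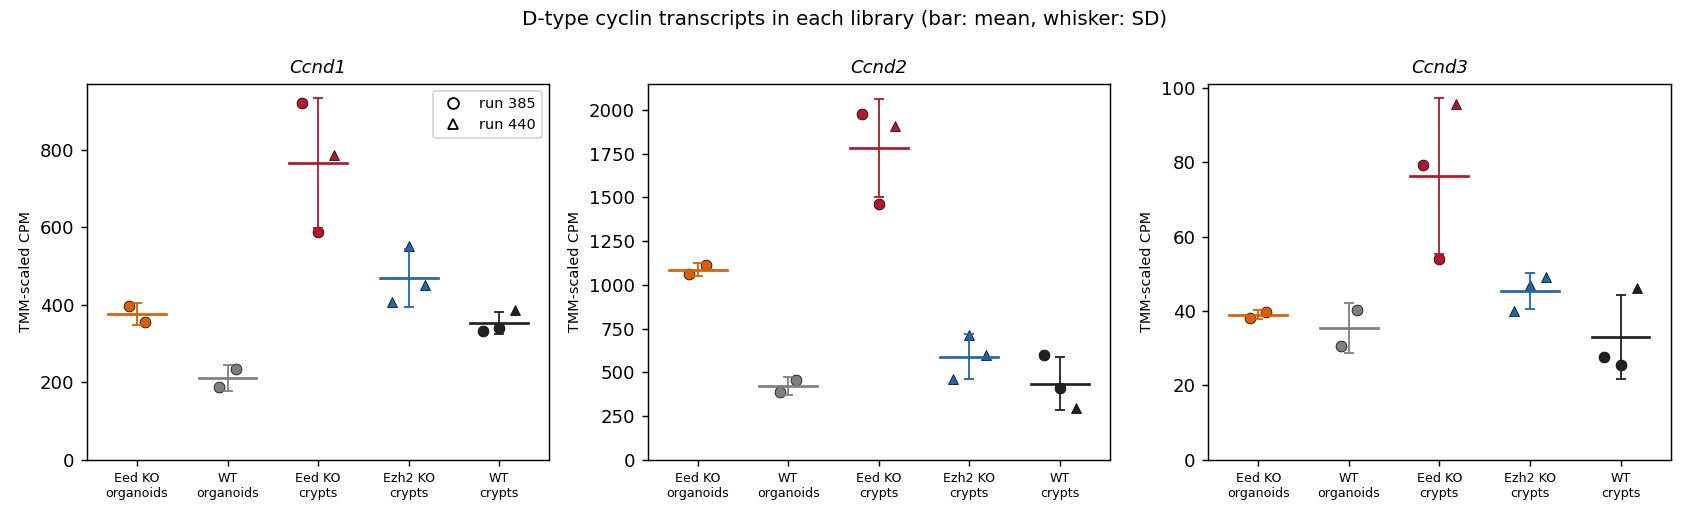
D-type cyclin transcripts in each library, as TMM-scaled CPM on linear axes that start at 0. Points are libraries (circles run 385, triangles run 440), bars are group means and whiskers SD. All 3 Eed KO crypts lie above all 3 WT crypts for each gene, and both Eed KO organoids lie above both WT organoids for Ccnd1 and Ccnd2 but not for Ccnd3.

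Ccnd2 had the largest fold change of the 10 genes. This cyclin (ENSMUSG00000000184, GRCm38 chromosome 6, 127125779 to 127151048, minus strand) is a D-type cyclin that Myc and growth factor signals induce in many cell types. It was measured at 1978, 1461 and 1906 CPM in Eed KO crypts, against 598, 410 and 299 CPM in WT crypts. The lowest Eed KO crypt was thus above the highest WT crypt, and the difference between group means was several times the SD of either group. Ccnd2 averaged 1781 ± 280 CPM in Eed KO crypts and 436 ± 151 CPM in WT crypts (SD, n = 3 each), a log2 fold change of 2.09 ± 0.28 (SE, adjusted p = 0.00112) or 4.25-fold. Within run 385 the ratio of Eed KO to WT was 3.41, and within run 440, with 1 library each, it was 6.38.

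Ccnd1 (ENSMUSG00000070348, chromosome 7, 144929931 to 144939869, minus strand), the D-type cyclin best known as a target of mitogen signals, was measured at 921, 589 and 787 CPM in Eed KO crypts, against 333, 339 and 386 CPM in WT crypts. The groups did not overlap, and the spread was wider among the Eed KO crypts. The log2 fold change was 1.14 ± 0.20 (SE, adjusted p = 0.00395), or 2.20-fold, with ratios of 2.25 within run 385 and 2.04 within run 440. Ccnd3 (ENSMUSG00000034165, chromosome 17, 47505051 to 47599691, plus strand), the D-type cyclin best known from lymphocytes, was measured at 79.2, 54.0 and 95.7 CPM in Eed KO crypts, against 27.5, 25.4 and 46.1 CPM in WT crypts. Its log2 fold change was 1.26 ± 0.18 (SE, adjusted p = 0.00147). Both groups had their highest Ccnd3 level in run 440, and the ratio was 2.52 within run 385 and 2.08 within run 440.

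The exons of Ccnd3 share 361 bases with Bysl on the opposite strand, and no source used here states the strand setting of the counting, so reads of the shared part cannot be told apart. Bysl averaged 44.0 ± 10.96 CPM in Eed KO crypts and 32.5 ± 7.9 CPM in WT crypts (SD, n = 3 each, adjusted p = 0.203). Ccnd3 also has a named pseudogene, Ccnd3-ps, so its level is uncertain to the extent that reads are shared with it. Ccnd1 shares 1100 exon bases with LTO1 on the opposite strand, which averaged 3.03% of the Ccnd1 level in Eed KO crypts and 5.67% in WT crypts. Of the other members, Ccne2 shares 609 exon bases with Ints8, Cdk4 641 with Tspan31 and Cdk2 34 with Pmel, and none of these neighbours passed the threshold in Eed KO crypts. Ints8 averaged 299% of the Ccne2 level in Eed KO crypts and 219% in WT crypts. Tspan31 averaged 28.9% of the Cdk4 level in Eed KO crypts and 21.8% in WT crypts. Ccnd2 shares 368 exon bases with 9330179D12Rik, which averaged at most 0.282 CPM in any group. It also shares 372 with Gm43126, and Cdk6 shares 368 with Gm17590, neither of which is listed in both tables.

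Markers of other cells were compared over whole lists beside these values. The summed level of 8 immune cell markers was 142, 118 and 49.9 CPM in Eed KO crypts, against 51.8, 48.6 and 49.3 CPM in WT crypts, and 3 of the 8 were higher in Eed KO crypts. Run 440, with 1 library each, had the smallest gap in this sum. The summed level of 6 enterocyte markers was 83.9, 210 and 1989 CPM in Eed KO crypts, against 757, 420 and 1228 CPM in WT crypts, and none of the 6 passed the threshold. Eed KO crypt 440_1 thus stood far above the others of its group in enterocyte markers, and it had the lowest immune sum of that group. The summed level of 8 mesenchyme markers ranged from 136 to 312 CPM in Eed KO crypts and from 59.5 to 745 CPM in WT crypts, and that of 4 endothelial markers from 5.25 to 9.55 CPM in Eed KO crypts and from 3.02 to 4.82 CPM in WT crypts, and none of these that was tested passed the threshold. The summed level of 3 Paneth cell markers ranged from 6202 to 11465 CPM in Eed KO crypts and from 45356 to 52218 CPM in WT crypts, with 2 of 3 lower. The part of the immune, enterocyte and Paneth cell marker differences in the cyclin levels of crypts was not tested. In bulk RNA, fewer cells of a type and less RNA per cell cannot be told apart.

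Levels of different genes are compared here only per kilobase of annotated exons. On this scale the 3 D-type cyclins summed to 415, 286 and 380 CPM per kilobase in Eed KO crypts, against 137, 119 and 119 in WT crypts. Averages were 361 ± 67 CPM per kilobase in Eed KO crypts and 125 ± 11 in WT crypts (SD, n = 3 each), with p = 0.1 in a two-sided exact permutation test, the smallest that 3 against 3 libraries can give. Ccnd2 made up 52.7 ± 1.8% of this sum in Eed KO crypts and 36.6 ± 9.8% in WT crypts (SD, n = 3 each, exact permutation p = 0.1). Ccnd1 made up 44.9 ± 2.0% in Eed KO crypts and 60.4 ± 8.8% in WT crypts (SD, n = 3 each, exact permutation p = 0.1). Per kilobase, Ccnd2 thus exceeded Ccnd1 in every Eed KO crypt and Ccnd1 exceeded Ccnd2 in every WT crypt. Ccnd3 stayed the smallest part, at 2.40 ± 0.41% in Eed KO crypts and 3.05 ± 1.19% in WT crypts. Not divided by length, Ccnd2 made up 62.4%, 52.9% and 40.9% in WT crypts and Ccnd1 34.7%, 43.8% and 52.8%. The order of Ccnd1 and Ccnd2 in WT crypts thus depends on the exon lengths used.

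**Figure D2:**
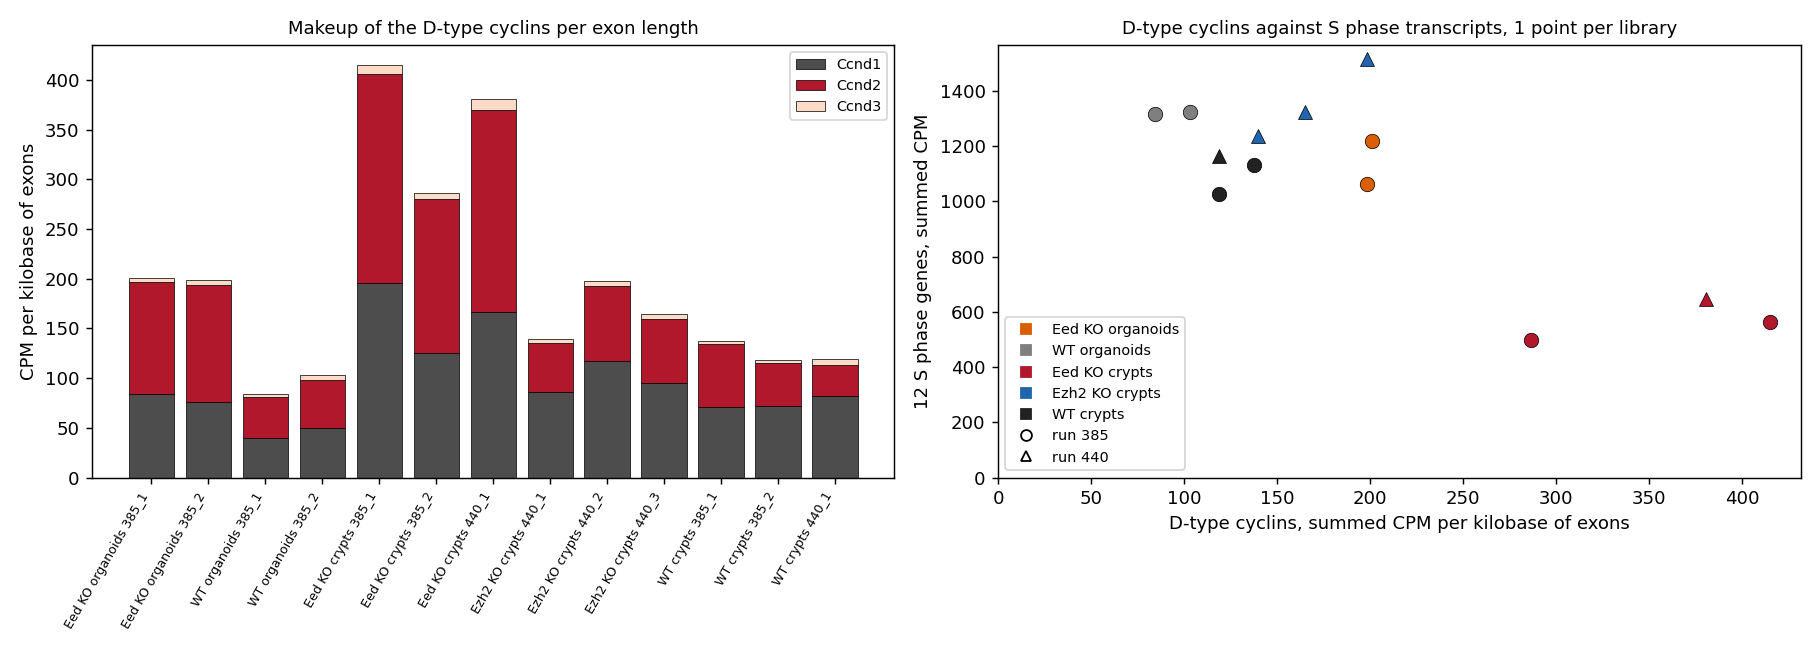
Left, Ccnd1, Ccnd2 and Ccnd3 stacked as CPM per kilobase of exons in each library on a linear axis. Right, the summed level of 12 S phase genes in CPM against the summed D-type cyclins in CPM per kilobase, 1 point per library (circles run 385, triangles run 440). The 3 Eed KO crypts stand apart at 286 to 415 on the horizontal axis and 498 to 647 on the vertical axis.

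The kinases did not follow the D-type cyclins. Cdk4 (ENSMUSG00000006728, chromosome 10, 127063534 to 127067920, plus strand), the main partner of D-type cyclins in most tissues, was measured at 217, 224 and 263 CPM in Eed KO crypts, against 246, 234 and 346 CPM in WT crypts. The ranges overlapped, with a log2 fold change of -0.19 (95% interval -0.50 to 0.11, adjusted p = 0.342). Cdk6 (ENSMUSG00000040274, chromosome 5, 3343893 to 3523218, plus strand), the second kinase of the D-type cyclins, was measured at 21.5, 16.3 and 15.0 CPM in Eed KO crypts, against 51.4, 47.4 and 20.7 CPM in WT crypts. The log2 fold change of Cdk6 was -1.07 ± 0.22 (SE, adjusted p = 0.00808), and the WT crypt of run 440 lay just below the highest Eed KO crypt. Cdk6 had a ratio of Eed KO to WT of 0.382 within run 385 and 0.724 within run 440. Per kilobase, Cdk4 made up 98.3 ± 0.5% of both kinases in Eed KO crypts and 96.5 ± 1.8% in WT crypts (SD, n = 3 each, exact permutation p = 0.3), so the fall of Cdk6 concerned the minor kinase transcript.

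Among the cyclin E genes, Ccne1 (ENSMUSG00000002068, chromosome 7, 38097984 to 38107534, minus strand) was measured at 18.6, 16.8 and 31.7 CPM in Eed KO crypts, against 18.4, 16.5 and 31.8 CPM in WT crypts. Levels differed between the runs and were close within each run, with a log2 fold change of 0.03 (95% interval -0.32 to 0.38, adjusted p = 0.917). Ccne2 (ENSMUSG00000028212, chromosome 4, 11191351 to 11204779, plus strand) was measured at 10.7, 18.3 and 5.24 CPM in Eed KO crypts, against 16.2, 16.1 and 24.6 CPM in WT crypts. Its standard error of 0.45 on the log2 scale was the largest of the 10 genes, and its log2 fold change of -0.80 (95% interval -1.83 to 0.23) did not pass the test (adjusted p = 0.245). Within run 385 the Ccne2 ratio was 0.897, and within run 440, where it had the lowest and the highest of the 6 values, it was 0.213. A fit of run 440 alone put Ccne2 past the threshold (adjusted p = 0.0488).

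Cdk2 (ENSMUSG00000025358, chromosome 10, 128697939 to 128705051, minus strand), the kinase that cyclin E activates, was measured at 45.2, 38.8 and 53.3 CPM in Eed KO crypts, against 69.4, 78.3 and 82.3 CPM in WT crypts. The groups did not overlap, and the log2 fold change was -0.73 ± 0.13 (SE, adjusted p = 0.00426), or 0.601-fold. The ratio was 0.569 within run 385 and 0.647 within run 440. E2f1 (ENSMUSG00000027490, chromosome 2, 154559407 to 154569892, minus strand), an activator of S phase genes, was measured at 9.89, 7.97 and 16.7 CPM in Eed KO crypts, against 21.9, 20.6 and 24.1 CPM in WT crypts. Its groups did not overlap either, and the log2 fold change was -0.98 ± 0.20 (SE, adjusted p = 0.00801), with ratios of 0.421 within run 385 and 0.695 within run 440.

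E2f2 (ENSMUSG00000018983, chromosome 4, 136172394 to 136196057, plus strand), the second activator in the set, was measured at 28.6, 36.9 and 71.8 CPM in Eed KO crypts, against 70.9, 66.2 and 74.7 CPM in WT crypts. Both Eed KO crypts of run 385 lay far below every WT crypt, whereas that of run 440, the library that also stood apart in enterocyte markers, lay within the WT range. The fitted log2 fold change was -0.71 ± 0.21 (SE, adjusted p = 0.0404), with a ratio of 0.477 within run 385 and 0.962 within run 440. A fit of run 440 alone gave a log2 fold change of 0.07 (adjusted p = 0.872), and the call was also lost without Eed KO crypt 385_1 (-0.49, adjusted p = 0.236), without Eed KO crypt 385_2 (-0.71, adjusted p = 0.0977), without WT crypt 385_1 (-0.60, adjusted p = 0.157) and without WT crypt 385_2 (-0.66, adjusted p = 0.122). It was lost as well without any 1 of the Ezh2 KO crypts (adjusted p 0.062 to 0.0843), which share the estimate of spread, and without the run term (-0.61, adjusted p = 0.211). A test of whether the Eed effect differed between runs, chosen after seeing these values, did not pass the threshold for any member. Of all 14406 genes, 210 passed it, and E2f2 had an adjusted p of 0.115 and Ccne2 of 0.0974.

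Same-numbered Eed KO and WT crypts share a run, and their deviations from group means correlated, at 0.152 within run 385 alone. A fit of these 6 libraries with the replicate number as a block kept the calls of Ccnd1, Ccnd2 and Ccnd3. It put Cdk2 (-0.75, adjusted p = 0.0633), Cdk6 (-1.09, adjusted p = 0.0637), E2f1 (-1.003, adjusted p = 0.06605) and E2f2 (-0.73, adjusted p = 0.166) outside the threshold at log2 fold changes close to those above. In this fit, 1589 of 13802 genes passed. Without Eed KO crypt 385_1, Cdk6 (-1.07, adjusted p = 0.0606) and E2f1 (-0.97, adjusted p = 0.0575) also missed the threshold. Every Eed KO crypt was above every WT crypt for 3 of the 10 genes, against 17% of all genes tested, and below every WT crypt for 2 of them, against 13.5% of all genes.

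**Figure D3:**
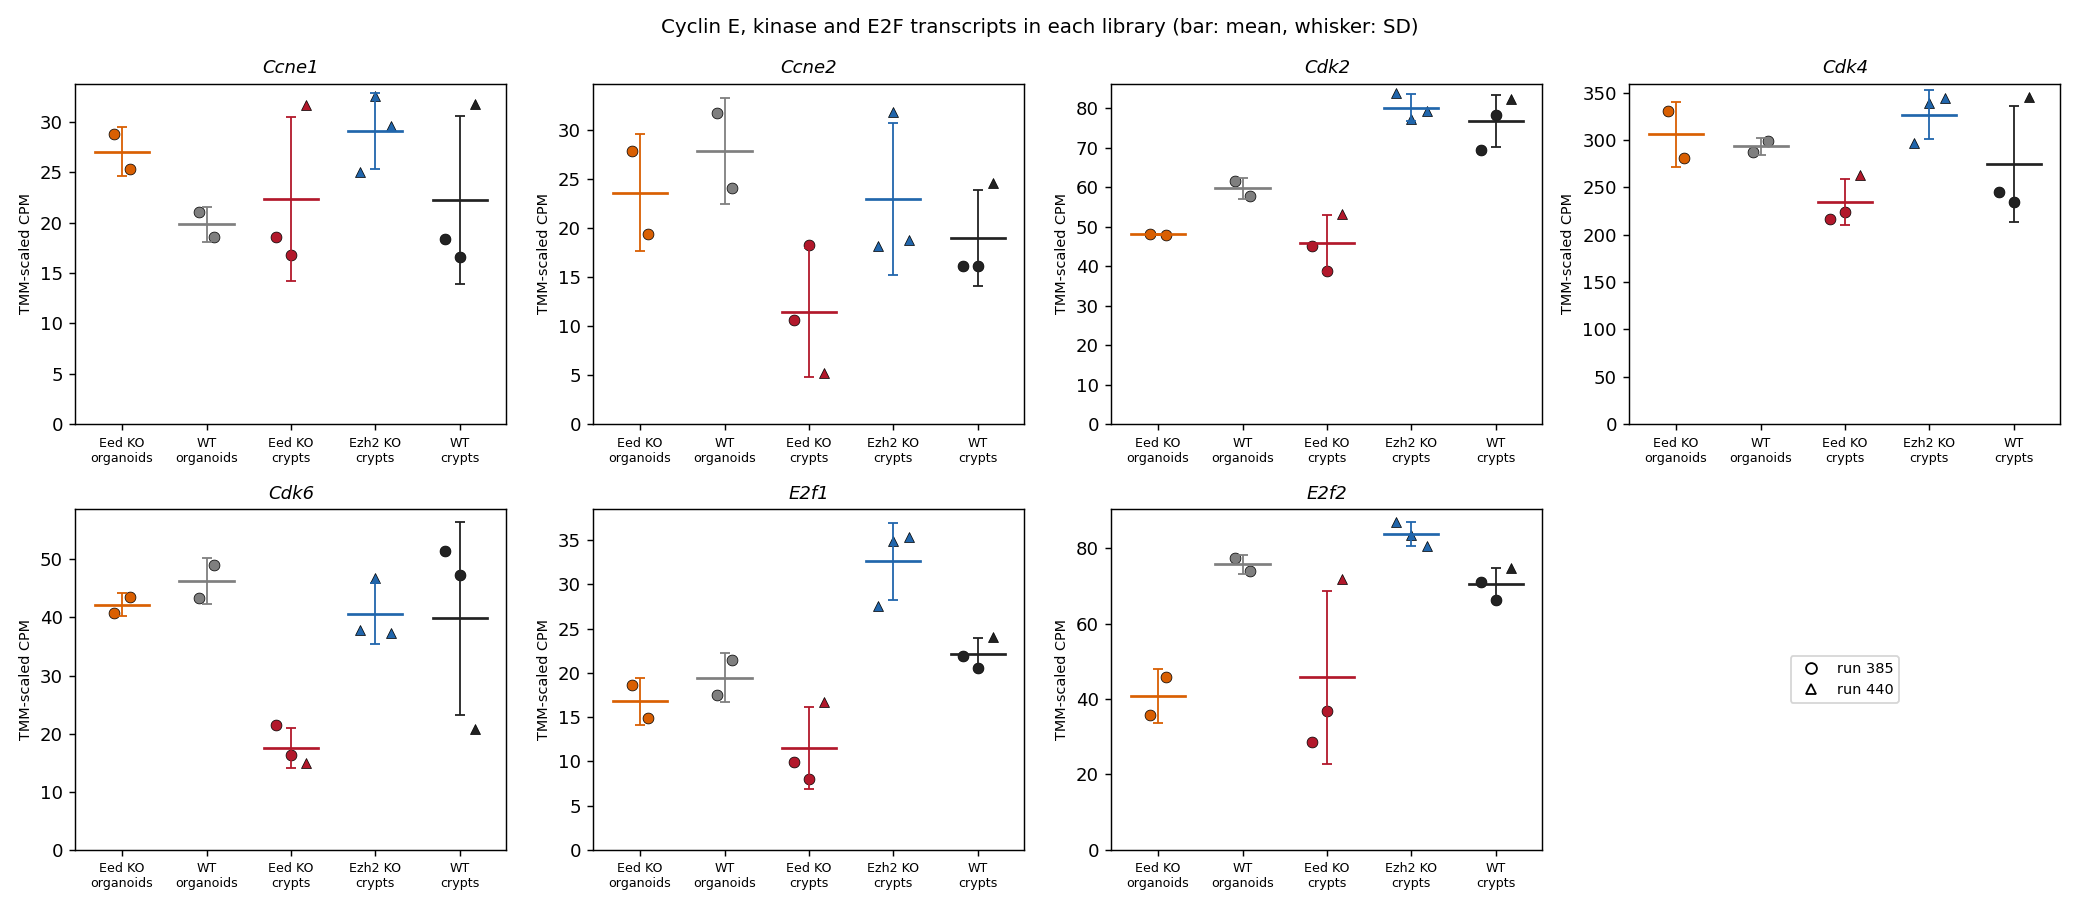
Transcripts of the E-type cyclins, the kinases and the E2F factors in each library, as TMM-scaled CPM on linear axes that start at 0. Points are libraries (circles run 385, triangles run 440), bars are group means and whiskers SD. Cdk2 and E2f1 lie lower in all 3 Eed KO crypts than in all WT crypts, and the E2f2 value of the Eed KO crypt of run 440 lies within the WT range.

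Promoter windows are shown for the members in which an E2F form was found, Cdk2 and E2f2, and for Cdk4, which held the E-box most often. Windows are those of RefSeq on GRCm38.p6, from 250 bases before to 50 after a transcript start, written 5′ to 3′ on the strand of the gene. The table held 9 windows for 7 of the 10 genes, and none for Ccnd1, Ccnd2 and Ccne2. Capitals mark an E2F form (TTTCCCGC, TTTCGCGC, TTTGCCGC or TTTGGCGC, or their reverse complements) or the E-box CACGTG, the site of Myc and related factors, and the 2 motifs did not overlap in any of them.

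E2f2, chr4:136172024-136172323, plus strand: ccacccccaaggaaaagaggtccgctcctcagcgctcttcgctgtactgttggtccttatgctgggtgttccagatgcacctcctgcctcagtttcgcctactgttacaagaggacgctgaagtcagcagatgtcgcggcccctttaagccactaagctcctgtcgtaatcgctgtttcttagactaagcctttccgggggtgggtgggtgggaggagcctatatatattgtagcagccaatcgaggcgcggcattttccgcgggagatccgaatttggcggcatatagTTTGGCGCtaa

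Cdk2, chr10:128705002-128705301, minus strand: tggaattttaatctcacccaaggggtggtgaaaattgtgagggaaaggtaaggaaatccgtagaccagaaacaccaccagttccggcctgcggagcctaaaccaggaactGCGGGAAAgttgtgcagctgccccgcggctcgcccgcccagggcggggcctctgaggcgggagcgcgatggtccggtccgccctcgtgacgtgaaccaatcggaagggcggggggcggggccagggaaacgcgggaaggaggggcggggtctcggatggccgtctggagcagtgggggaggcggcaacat

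Cdk4, chr10:127063285-127063584, plus strand: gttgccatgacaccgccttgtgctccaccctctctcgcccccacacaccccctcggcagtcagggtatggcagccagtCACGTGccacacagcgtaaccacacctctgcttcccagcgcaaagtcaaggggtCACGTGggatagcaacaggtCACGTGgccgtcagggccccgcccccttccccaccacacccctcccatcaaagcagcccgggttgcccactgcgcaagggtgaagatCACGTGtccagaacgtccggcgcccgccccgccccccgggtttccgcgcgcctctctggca

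The E2f2 window shown holds TTTGGCGC 39 bases after the start. It lies upstream of the gene start in the deposited tables, and its last 25 bases were in no annotated transcript. The other E2f2 window, chr4:136180532-136180831, ends within an annotated transcript and holds neither motif. The Cdk2 window holds GCGGGAAA 140 bases before the start. The Cdk4 window holds the E-box 4 times, at 172, 118, 98 and 11 bases before the start, and the Cdk6 window holds it once, 220 bases before the start. The windows of E2f1, Ccne1 and Ccnd3 hold neither motif in these letters. The E2f1 window, chr2:154569377-154569676 on the minus strand, lies inside the gene, downstream of its deposited start at 154569892. Bases around that start were not searched for E2f1. Of the 4 genes called lower in Eed KO crypts, the windows of Cdk6 and E2f1 hold no E2F form. Of all 32841 RefSeq windows of this length, 2.27% held an E2F form and 7.15% the E-box. Every form searched contains CG, and the median window held CG 7 times, against 18 in the E2f2, 25 in the Cdk2 and 22 in the Cdk4 window shown. These shares thus do not tell how rare a match is among windows as rich in CG. These matches describe the letters of the windows and were not set against any measure of binding.

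Other genes of the pathway were counted over lists chosen by function. Of 11 pocket protein, E2F and DP genes outside the 10, none was higher and 6 were lower in Eed KO crypts, with a median log2 fold change of -0.79, against -0.04 over all genes. E2f8, a repressor E2F induced in S phase, averaged 26.8 ± 15.2 CPM in Eed KO crypts and 75.6 ± 20.8 CPM in WT crypts (SD, n = 3 each), a log2 fold change of -1.57 (adjusted p = 0.0191). Rbl1, which encodes the pocket protein p107, had a log2 fold change of -1.39 (adjusted p = 0.00155), Tfdp2, which encodes a DP subunit that pairs with E2F factors, of -1.29 (adjusted p = 0.000749), and the repressor E2f7 of -1.29 (adjusted p = 0.00809). The other 2 lower genes, named after their values were seen, were Rb1, which encodes RB itself (-1.17, adjusted p = 0.0151), and Rbl2, which encodes the pocket protein p130 (-0.79, adjusted p = 0.002805), so all 3 pocket protein genes were lower.

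Of 12 S phase genes known as E2F targets, none was higher and 8 were lower, with a median log2 fold change of -0.996. Tk1, thymidine kinase, averaged 31.2 ± 16.4 CPM in Eed KO crypts and 93.2 ± 15.6 CPM in WT crypts (SD, n = 3 each), a log2 fold change of -1.66 (adjusted p = 0.000561). Ccna2, the cyclin of S phase and G2, averaged 63.5 ± 1.0 CPM in Eed KO crypts and 192 ± 0.3 CPM in WT crypts (SD, n = 3 each, log2 fold change -1.58, adjusted p = 0.00016). Pole, a subunit of DNA polymerase epsilon, had a log2 fold change of -1.53 (adjusted p = 0.00304). Summed over the 12 genes, the level was 562, 498 and 647 CPM in Eed KO crypts, against 1130, 1028 and 1165 CPM in WT crypts. All 3 markers of cycling cells, Mki67, Top2a and Ccnb1, were lower as well. Their sum was 526, 466 and 162 CPM in Eed KO crypts, against 1473, 1466 and 1044 CPM in WT crypts. In both groups the crypt of run 440 thus had the lowest cycling sum but the highest S phase sum. Of 4 crypt base stem cell markers, 2 were lower, and their sum was 717, 609 and 1027 CPM in Eed KO crypts, against 4071, 4139 and 4302 CPM in WT crypts. The part of these cell type differences in the lower levels of Cdk2, Cdk6, E2f1 and E2f2 was not tested.

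Among 7 CDK inhibitors, 2 rose and 2 fell. Cdkn2a, which encodes the CDK4 and CDK6 inhibitor p16 and the p53 activator ARF, averaged 58.1 ± 5.7 CPM in Eed KO crypts and was at most 0.0892 CPM in any WT crypt (adjusted p = 1.26e-05). Cdkn1a, which encodes p21, averaged 287 ± 92 CPM in Eed KO crypts and 38.9 ± 4.8 CPM in WT crypts (SD, n = 3 each, log2 fold change 2.87, adjusted p = 0.00016). Cdkn1b, which encodes p27, and Cdkn2c, which encodes p18, had log2 fold changes of -1.21 (adjusted p = 0.00148) and -0.97 (adjusted p = 0.00264). Of 8 genes of CDK activation and cyclin turnover, none was higher and 2 were lower: Skp2, the ubiquitin ligase subunit that recognises p27, had a log2 fold change of -0.68 (adjusted p = 0.0103), and its cofactor Cks1b of -0.65 (adjusted p = 0.00979).

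None of the 10 genes passed the threshold in Ezh2 KO crypts against WT crypts, a comparison that shares its WT libraries with the one above. Of all 14406 genes, 0% were higher and 0.0208% lower by edgeR, and 1179 had an unadjusted p under 0.05, among them 1 of the 10, Cdk6. DESeq2 put none of the 10 past its threshold either. Ccnd2 was measured at 460, 712 and 600 CPM in Ezh2 KO crypts, within or above the WT range of 299 to 598 CPM, with a log2 fold change of 0.65 (95% interval -0.13 to 1.42, adjusted p = 0.64). Ccnd1 was measured at 407, 552 and 450 CPM in Ezh2 KO crypts, all above the WT range of 333 to 386 CPM, with a log2 fold change of 0.32 (95% interval -0.22 to 0.87, adjusted p = 0.719). E2f1 was measured at 27.6, 34.9 and 35.4 CPM in Ezh2 KO crypts, above the WT range of 20.6 to 24.1 CPM, with a log2 fold change of 0.18 (95% interval -0.38 to 0.74). E2f2 was measured at 87.1, 83.6 and 80.7 CPM in Ezh2 KO crypts, above the WT range of 66.2 to 74.7 CPM, whereas its log2 fold change, fitted with run as a term, was -0.21 (95% interval -0.81 to 0.39). Ccnd1, E2f1 and E2f2 were thus the 3 of 10 genes for which every Ezh2 KO crypt was above every WT crypt, against 11% of all genes tested, and none was below, against 8.99%. These levels are not corrected for run. All Ezh2 KO crypts were in run 440 and had no Ddx3y count, whereas WT crypts 385_1 and 385_2 had 400 and 627. Run and sex cannot be told apart from genotype between those 2 WT crypts and the Ezh2 KO crypts. Cdk6 was measured at 37.9, 46.8 and 37.3 CPM in Ezh2 KO crypts, and its log2 fold change of 0.63 (95% interval 0.01 to 1.26, adjusted p = 0.602) stood beside a ratio of 1.96 to the single WT crypt of the same run, at 20.7 CPM, and the 2 other WT crypts were at 51.4 and 47.4 CPM. The narrowest of the 10 intervals, that of Cdk2, ran from -0.47 to 0.26, so the test does not show that levels were equal. Ezh2 KO crypts had Paneth cell marker sums of 12728 to 26926 CPM and immune sums of 23.6 to 30.9 CPM, below every WT crypt. Their enterocyte sums of 1652 to 3095 CPM lay above every WT crypt. Sums of the other cell type lists overlapped. None of these markers passed the threshold, and the sums are not corrected for run. Their part in the levels of the 10 genes was not tested.

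Set directly against Ezh2 KO crypts, Eed KO crypts had higher Ccnd1, Ccnd2 and Ccnd3 and lower Cdk2, Cdk6 and E2f1. Among all genes tested, 12% were higher and 8.05% lower in this comparison. The log2 fold change of Ccnd2 was 1.44 ± 0.31 (SE, adjusted p = 0.0128) and that of Ccnd3 was 1.19 ± 0.21 (SE, adjusted p = 0.00571), a call that was lost without the run term (0.78, adjusted p = 0.0715). For Ccnd1 it was 0.81 ± 0.24 (SE, adjusted p = 0.0429), and this call was lost when any of 7 single libraries was left out, among them Eed KO crypt 440_1 (adjusted p = 0.167). Leaving out Eed KO crypt 440_1 also moved Ccnd2 to 0.71 (adjusted p = 0.273). Cdk6 had a log2 fold change of -1.70 ± 0.27 (SE, adjusted p = 0.00383), E2f1 of -1.16 ± 0.24 (SE, adjusted p = 0.0118) and Cdk2 of -0.63 ± 0.16 (SE, adjusted p = 0.0263). Cdk2 missed the threshold when any of 8 single libraries was left out (adjusted p 0.0536 to 0.0858), and E2f1 did so without Ezh2 KO crypt 440_2 (adjusted p = 0.05235).

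**Figure D4:**
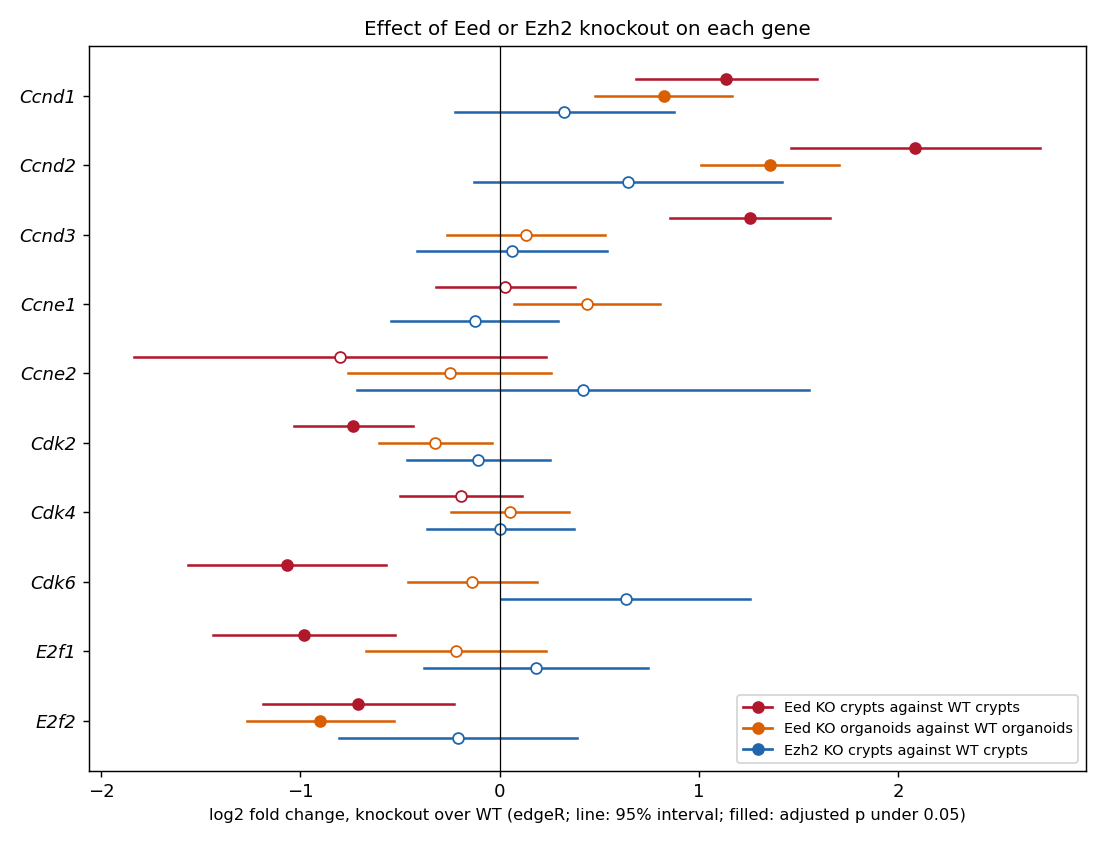
Log2 fold change of each of the 10 genes in Eed KO crypts against WT crypts, Eed KO organoids against WT organoids and Ezh2 KO crypts against WT crypts (edgeR). Lines are 95% intervals, and filled points have an adjusted p under 0.05. Ccnd1 and Ccnd2 are higher and E2f2 lower in both Eed KO comparisons, and no point of the Ezh2 KO comparison is filled.

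In organoids, Ccnd1 and Ccnd2 were higher and E2f2 was lower with Eed KO than in WT. The other 7 genes did not pass the test. Organoids held no count of 4 of the 8 immune markers and at most 2.74 CPM of all 8 together, and the bearing of this on the crypt values was not tested. Among the 12958 genes tested, 13.5% were higher and 4.63% lower. Ccnd2 was measured at 1061 and 1114 CPM in Eed KO organoids, against 386 and 458 CPM in WT organoids, a log2 fold change of 1.36 ± 0.15 (SE, adjusted p = 0.00134) or 2.56-fold. Ccnd1 was measured at 396 and 356 CPM in Eed KO organoids, against 188 and 234 CPM in WT organoids, a log2 fold change of 0.82 ± 0.15 (SE, adjusted p = 0.00877). The groups did not overlap for either gene, and of the 14406 genes tested in crypts 33% had both Eed KO organoids above both WT organoids and 25.1% had both below. The Ccnd1 call was lost without WT organoid 385_1 (0.66, adjusted p = 0.0662). E2f2 was measured at 35.7 and 45.8 CPM in Eed KO organoids, against 77.5 and 73.9 CPM in WT organoids, a log2 fold change of -0.90 ± 0.16 (SE, adjusted p = 0.00813) that kept its call without any single library. Strain label and sex differed between the organoid groups along with genotype and cannot be told apart from it.

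The other members differed less in organoids. Ccnd3 was measured at 38.2 and 39.8 CPM in Eed KO organoids, against 30.6 and 40.2 CPM in WT organoids, with overlapping ranges and a log2 fold change of 0.13 (95% interval -0.26 to 0.53, adjusted p = 0.664). Cdk6 was measured at 40.8 and 43.6 CPM in Eed KO organoids, against 43.4 and 49.0 CPM in WT organoids (log2 fold change -0.14, 95% interval -0.46 to 0.19). E2f1 was measured at 18.6 and 14.9 CPM in Eed KO organoids, against 17.5 and 21.4 CPM in WT organoids (log2 fold change -0.22, 95% interval -0.67 to 0.23). Ccne1, at 28.8 and 25.3 CPM in Eed KO organoids, against 21.1 and 18.6 CPM in WT organoids, and Cdk2, at 48.2 and 47.9 CPM in Eed KO organoids, against 61.6 and 57.8 CPM in WT organoids, had adjusted p-values of 0.104 and 0.122. Ccne2 and Cdk4 had adjusted p-values of 0.504 and 0.832.

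Per kilobase of exons, the D-type cyclins summed to 201 and 199 CPM in Eed KO organoids, against 84.4 and 103 CPM in WT organoids. Ccnd2 made up 57.8 ± 2.6% of this sum in Eed KO organoids and 47.9 ± 0.9% in WT organoids (SD, n = 2 each). Of the pathway lists, the pocket protein, E2F and DP genes had none higher and 3 of 11 lower in organoids, the S phase genes none higher and 1 of 12 lower, and the CDK inhibitors 2 of 7 higher and 1 lower. The S phase gene that fell was Ccna2, with a log2 fold change of -0.56 (adjusted p = 0.0234). Cdkn2a averaged 50.3 ± 5.8 CPM in Eed KO organoids and 0.594 ± 0.114 CPM in WT organoids (SD, n = 2 each, adjusted p = 1.88e-05). Summed over 12 genes, S phase transcripts were at 1217 and 1061 CPM in Eed KO organoids, against 1316 and 1325 CPM in WT organoids, so both Eed KO organoids had the higher D-type cyclin sum and the lower S phase sum.

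The difference between the Eed effect in organoids and that in crypts was tested in a fit of all 13 libraries. Of the 14761 genes, 2.99% had a higher and 1.13% a lower effect in organoids. Among the 10 genes, Ccnd3 alone passed, with a difference in log2 fold change of -1.11 ± 0.27 (SE, adjusted p = 0.0429), its effect being 0.13 in organoids and 1.26 in crypts in the separate fits. This call was lost in 11 of the 18 alternatives, and leaving out any single library but Eed KO crypt 385_2, Eed KO crypt 440_1 or WT crypt 440_1 gave an adjusted p of 0.05155 to 0.192. Cdk6 had a difference of 0.94 (95% interval 0.27 to 1.60, adjusted p = 0.116), which passed the threshold without Eed KO crypt 440_1 (1.23, adjusted p = 0.0109), without WT crypt 440_1 (1.21, adjusted p = 0.0125) and in run 385 alone (1.22, adjusted p = 0.0102). For Ccnd2 the difference was -0.72 (95% interval -1.54 to 0.10, adjusted p = 0.366), for Ccnd1 -0.31 (95% interval -0.94 to 0.33, adjusted p = 0.691) and for E2f2 -0.19 (95% interval -0.87 to 0.49, adjusted p = 0.852). Length of induction, strain and culture differ between the pairs along with tissue. So does sex by Ddx3y, whose pattern between Eed KO and WT in run 385 crypts ran the other way in organoids. None of these can be told apart here.

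Culture and tissue of the same genotype also differ in length of induction, and WT organoids and WT crypts in strain label. Ddx3y was at 597 and 632 counts in Eed KO organoids and at 0, 1 and 0 in Eed KO crypts. It was at 1 and 0 counts in WT organoids and at 400, 627 and 0 in WT crypts. Crypts also held more immune and Paneth cell marker RNA. None of these can be told apart from culture here. Between culture and tissue, the D-type cyclins differed in another way. Eed KO organoids had lower Ccnd1 (log2 fold change -1.001, adjusted p = 0.00678), Ccnd2 (-0.84, adjusted p = 0.0493) and Ccnd3 (-0.75, adjusted p = 0.0176) than Eed KO crypts, and higher Ccne1 (0.60, adjusted p = 0.0201), Cdk4 (0.50, adjusted p = 0.0252), Cdk6 (0.98, adjusted p = 0.00917) and E2f1 (0.75, adjusted p = 0.0304). Over all genes, 12.3% were higher and 15.6% lower in this comparison. Leaving out Eed KO organoid 385_1 or 385_2 left 2 of these 7 calls, and leaving out Eed KO crypt 385_1 left 3. The Ccnd2 call was lost without any 1 of 10 single libraries (adjusted p 0.05083 to 0.205). WT organoids differed from WT crypts in 1 of the 10 genes, with lower Ccnd1 (-0.69, adjusted p = 0.0352), against 9.17% of all genes higher and 18.9% lower. The Ccnd1 call was lost without any 1 of WT crypts 385_1, 385_2 and 440_1, WT organoids 385_1 and 385_2 and Ezh2 KO crypt 440_3 (adjusted p 0.0637 to 0.2455).

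Across the 5 groups, Ccnd2 had the widest range of mean levels, 4.22-fold between Eed KO crypts and WT organoids, followed by Ccnd1 at 3.62-fold between the same groups. Ccnd2 was highest in Eed KO crypts, then in Eed KO organoids, Ezh2 KO crypts, WT crypts and WT organoids, and among the last 3 groups each overlapped the next. Ccnd1 was highest in Eed KO crypts, then in Ezh2 KO crypts, Eed KO organoids, WT crypts and WT organoids, and of the neighbours only Eed KO organoids and WT crypts overlapped. Ccnd3 was highest in Eed KO crypts, then in Ezh2 KO crypts, with no overlap between them or with the next group, and Eed KO organoids, WT organoids and WT crypts followed with overlapping levels. E2f2 was highest in Ezh2 KO crypts, then in WT organoids, WT crypts, Eed KO crypts and Eed KO organoids, and each group after the first overlapped its neighbour. Cdk2 and E2f1 shared an order, highest in Ezh2 KO crypts and then in WT crypts, WT organoids, Eed KO organoids and Eed KO crypts. For Cdk2 the first 2 groups overlapped and so did the last 2, and for E2f1 each group after the first overlapped its neighbour. Cdk4 and Ccne1 varied least, by 1.39-fold and 1.47-fold between the highest and lowest group mean, and every group overlapped its neighbour in their orders. Ccne2 and Cdk6 shared an order, highest in WT organoids and then in Eed KO organoids, Ezh2 KO crypts, WT crypts and Eed KO crypts, again with overlap between all neighbours.

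The genes whose pattern over the 13 libraries was most like each member were found among 10876 genes by the root mean square difference of centred log2 CPM. The closest were Mcrip1 for Ccnd1 (difference 0.207, against a root mean square of 0.61 for Ccnd1 itself), Lrrc28 for Ccnd2 (0.332 against 0.873), Ubtd1 for Ccnd3 (0.198 against 0.522) and Sac3d1 for Ccne1 (0.124 against 0.358). For Ccne2 it was Exosc9 (0.215 against 0.666), for Cdk2 Gle1 (0.112 against 0.362) with Epcam, itself lower in Eed KO crypts, second (0.128), for Cdk4 Nubp1 (0.0877 against 0.228) and for Cdk6 Rad21 (0.185 against 0.611). E2f1 was closest to Fen1, the flap endonuclease of DNA replication (0.155 against 0.595), and E2f2 to Acp6 (0.175 against 0.519). Ccnd2 had the largest distance to its closest gene of the 10 members. These are descriptions over libraries that share group, run and depth.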

How the data were processed

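Per the labels' protocols, crypts were freed of villi and detached with EDTA, and a stranded mRNA kit was used on TRIzol-extracted RNA. Raw counts per gene were deposited by the authors in 1 table per sequencing run. The submitters' processing notes list GRCm38 as build and name TopHat2 2.0.12, Bowtie 0.12.9, DESeq2 and HTSeq without their roles. Symbols and exon lengths came from GENCODE M21.

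Counts were fitted with edgeR 4.0.16 in R 4.3.3 (TMM, low-count filter with minimum count 10 and minimum total 15, robust quasi-likelihood F test, Benjamini-Hochberg threshold 0.05). Fits of crypts and of all 13 libraries started from the 21420 shared genes, and the organoid fit from the 23969 genes of run 385. Crypts (9 libraries, 14406 genes, 5 residual degrees of freedom) and all 13 libraries (14761 genes, 7) had run as a term, and organoids (4 libraries, 12958 genes, 2) none. Levels are TMM-scaled CPM over 13 libraries, computed from the deposited counts and not corrected for run. Depth was 11421666 to 18300644 counts per library, and it limits counting error only. Same-numbered Eed KO and WT crypts deviated from their group means with correlations of 0.176, 0.374 and 0.341. These means mix both runs, so this check cannot tell pairing from run. Within run 385 alone the correlation was 0.152. A fit with the replicate number as a block was set beside the results. No label states that the numbers pair libraries. Scripts were tested on simulated data. Alternatives were RLE scaling, DESeq2 1.42.0, no filter, each library left out, single runs, no run term and the block. All 10 genes are named. From each pathway list at most 4 genes are named, those past the threshold in Eed KO crypts with the largest log2 fold change, and 1 gene that this rule picks is not reported here. The members and lists were chosen with earlier results of these data known.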

Additional observations from a re-analysis of the deposited data

Results flagged for a closer look

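The Eed effect on Ccnd3 differed between tissue and culture by the test of the difference itself, at -1.11 on the log2 scale (organoid minus crypt effect, adjusted p = 0.0429). Ccnd3 averaged 39.0 ± 1.1 CPM in Eed KO organoids and 35.4 ± 6.8 CPM in WT organoids (SD, n = 2 each), and 76.3 ± 20.98 CPM in Eed KO crypts and 33.0 ± 11.4 CPM in WT crypts (SD, n = 3 each). The call was lost in 11 of 18 alternatives. The summed immune markers were 142, 118 and 49.9 CPM in the Eed KO crypts and 51.8, 48.6 and 49.3 CPM in the WT crypts. In run 440, with 1 library each, Ccnd3 was at 95.7 CPM in the Eed KO crypt and 46.1 CPM in the WT crypt. The part of immune cells in the Ccnd3 levels was not tested. Sex by Ddx3y, strain, length of induction and culture differ between the pairs along with tissue and cannot be told apart.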

How the results depend on the processing

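The higher Ccnd2 and Ccnd3 in Eed KO crypts kept direction and threshold under every alternative run, and Ccnd1 under all but run 440 alone (1.15, adjusted p = 0.0539). Of 10 members under all alternatives, 149 of 170 values kept direction and side of the threshold in Eed KO against WT crypts, 140 of 140 in Ezh2 KO against WT crypts, 116 of 140 in Eed KO against Ezh2 KO crypts, 87 of 90 in organoids and 166 of 180 for the difference between organoids and crypts. The number of members past the threshold in Eed KO against WT crypts was 7, and 3 with the replicate block and 4 to 7 with a library left out. Calls among all genes fell too, from 1932 higher and 1531 lower of 14406 to 1589 of 13802 with the block. Without Eed KO crypt 385_1, which left 4 members, they fell to 2224 of 14675. E2f2 turned to 0.068 in run 440 alone, where the cause was not tested. In organoids the block, whose 2 pairs correlated at 0.242, gave 5 members in place of 3, adding Ccne1 (adjusted p = 0.0272) and Cdk2 (adjusted p = 0.0425), while calls among all 12958 genes also rose, to 3902 with the block, against 1752 higher and 600 lower without it. The difference between organoids and crypts had 1 member, 0 with the block, 2 in run 385 alone and 0 to 2 with a library left out, and calls among all genes moved too, to 72 of 14628 with the block and 1354 of 14409 in run 385 alone, against 441 higher and 167 lower of 14761. WT organoids against WT crypts had 0 members without WT crypt 385_2, with 2635 of 14839 genes called, and 2 without Eed KO crypt 385_1, with 3870 of 14651. The main fit called 1354 higher and 2788 lower of 14761. Eed KO organoids against Eed KO crypts had 3 members without Eed KO crypt 385_1, with 2679 of 14651 genes called, against 1814 higher and 2307 lower of 14761. Leaving out an organoid leaves 1 in its group, which is assumed to vary like the others. RLE scaling moved the median of all genes by less than 0.1 on the log2 scale. Run 440 holds 1 Eed KO and 1 WT crypt, so its fit rests on the spread of the Ezh2 KO crypts. Counting error weighs most on E2f1, Ccne1 and Ccne2, at 5.24 to 35.4 CPM.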

Other observations

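S phase genes were higher in Eed KO organoids than in Eed KO crypts for 10 of 12, with a median log2 fold change of 1.12, against -0.01 over all genes, and in WT organoids than in WT crypts for 3 of 12, with a median of 0.35, against -0.13 over all genes. In the same comparisons 4 of 11 pocket protein, E2F and DP genes were higher between the Eed KO groups and 1 of 11 between the WT groups. Length of induction, sex by Ddx3y and cell makeup differ along with culture in these comparisons and cannot be told apart. Among CDK inhibitors, Cdkn1a averaged 258 ± 15 CPM in Eed KO organoids and 143 ± 32 CPM in WT organoids (SD, n = 2 each), so its level in WT organoids was above the 38.9 ± 4.8 CPM of WT crypts (SD, n = 3). Ezh2 itself averaged 45.6 ± 10.6 CPM in Eed KO crypts and 86.0 ± 12.2 CPM in WT crypts (SD, n = 3 each, edgeR adjusted p = 0.00212), and 99.0 ± 7.6 CPM in Eed KO organoids and 105.7 ± 0.03 CPM in WT organoids (SD, n = 2 each, edgeR adjusted p = 0.615).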
